A study of Rattus norvegicus with 6 samples.

Results

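The genes described are 34 endothelial identity genes, whose RNAs mark the cells that line blood and lymph vessels. They were chosen by name, from a list of gene symbols, and each was read from the probe set that the platform annotation pairs with that gene alone. In all, 29 of the 34 genes were measured this way, each by 1 probe set, out of 28879 probe sets on the array, and Pecam1, Kdr, Eng, Ptprb and Ecscr were not analysed here. RNA came from the thoracic aorta of untreated rats aged 24 weeks, of 2 inbred strains. SHR, the spontaneously hypertensive rat, becomes hypertensive as it matures, and WKY, the Wistar-Kyoto rat, is its usual normotensive control. Each strain had 3 Affymetrix Rat Gene 2.0 ST arrays. The segment was 1.5 to 2.0 cm long and had been cleaned of adhering fat and connective tissue before freezing, per the labels. Nothing in the labels ties an array to an animal of its own, so p-values measure the spread between these arrays alone, and that spread may be technical.

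Endothelial cells form a single sheet between blood and the vessel wall. Their identity rests on transcription factors of the ETS family (Erg, Fli1) and of the SOXF group (Sox7, Sox17, Sox18). These act on genes for cell junctions, for receptors of vascular growth factors and for the proteins that keep blood from clotting. In a conduit artery such as the aorta this sheet is thin beside the smooth muscle of the media. The outer coat and the fat around it carry further endothelium, in small nourishing vessels, capillaries and lymphatics.

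The values are log2 levels, so that a difference of 1 is a doubling of the measured signal. Precision is limited by the number of arrays. Array medians lay between 2.29 and 2.52, and the files give no detection call. Robo4, Ushbp1, Nostrin and Flt4 lay near those medians, and whether they were above background was not measured. Across all probe sets the arrays did not group by strain, with a mean correlation of 0.980 within strains and 0.979 between them. WKY replicate 3 stood apart, as the highest of the 6 arrays for 30.5% and the lowest for 28.3% of tested probe sets. The smooth muscle markers expected of an aorta were high on all 6 arrays, with 7 of 9 measured at a mean log2 level of 9.26 to 9.60. The sample is bulk tissue, in which fewer endothelial cells and less RNA per endothelial cell cannot be told apart.

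The endothelial genes varied widely between arrays of the same strain. SHR replicate 1 and WKY replicate 1 were high and SHR replicate 3 was low for most of them. The 29 genes had a mean log2 level of 5.61, 4.75 and 4.45 on SHR replicates 1, 2 and 3 and of 5.48, 5.17 and 4.96 on WKY replicates 1, 2 and 3. SHR replicate 1 was the highest of the 6 arrays for 15 of the 29 genes, against 16.8% of all 21659 tested probe sets. WKY replicate 1 was the highest for 9 of them, against 12.3% of all. SHR replicate 3 was the lowest for 16 of them, against 15% of all. The median gene lay 0.54 above its own mean on SHR replicate 1, 0.39 above it on WKY replicate 1 and at -0.59 on SHR replicate 3.

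**Figure D1:**
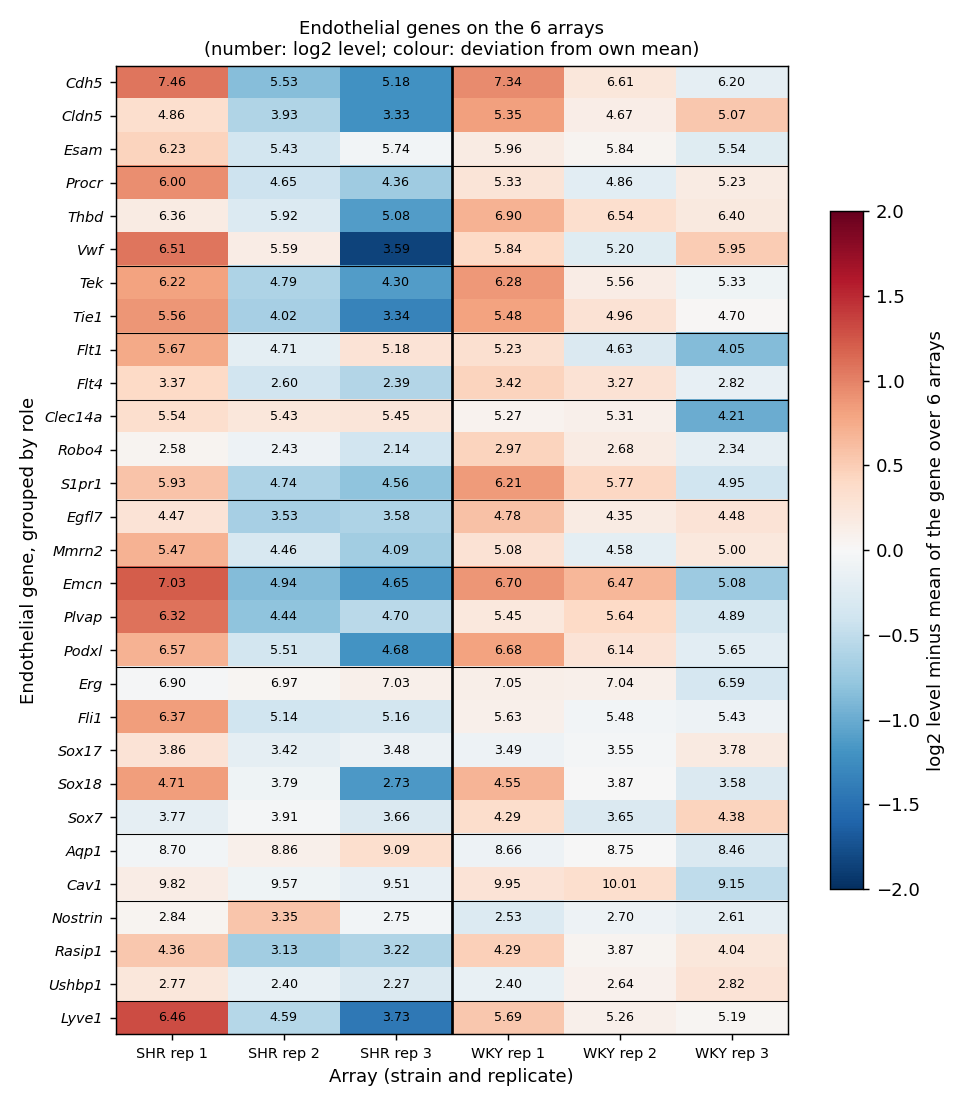
Log2 level of each of the 29 endothelial genes (rows, grouped by role) on the 6 arrays (columns, SHR left of the line, WKY right). The number in a cell is the level and the colour is the deviation from the gene's own mean, so that red columns such as SHR replicate 1 and blue ones such as SHR replicate 3 mark arrays on which most genes lay together above or below.

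The spread was wider in SHR. The range over the 3 SHR arrays exceeded that over the 3 WKY arrays for 23 of the 29 genes, against 39.1% of all tested probe sets. It reached 1 log2 unit or more within SHR for 16 genes, against 7.1% of all, and within WKY for 6 genes, against 11.1% of all. The median range was 1.23 within SHR and 0.63 within WKY, where the medians over all tested probe sets were 0.34 and 0.46. In SHR the median endothelial gene was 1.2 higher on replicate 1 than on replicate 3, while the median over all tested probe sets was -0.03.

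**Figure D2:**
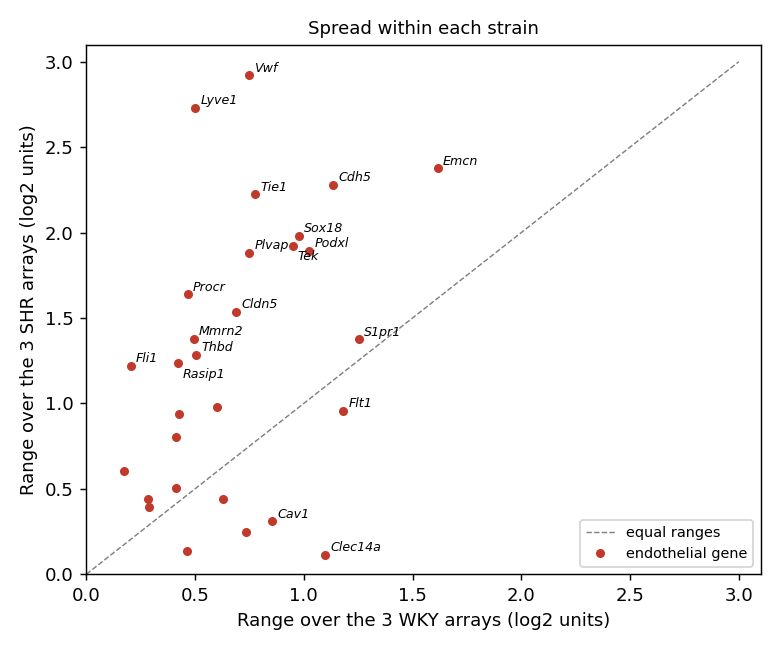
Range over the 3 SHR arrays against range over the 3 WKY arrays, both in log2 units, with 1 point per endothelial gene and a dashed line of equal ranges. Vwf, Lyve1, Emcn, Cdh5 and Tie1 lie high on the SHR axis, while Clec14a and Cav1 lie below the line.

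The strain comparison asked whether endothelial RNAs differ between the aortae of hypertensive and control rats. In limma over all 21659 tested probe sets, 0 of the 29 endothelial genes passed at a Benjamini-Hochberg adjusted p under 0.05, where 0.0693% of all probe sets did. At an unadjusted p under 0.05 there were 3 genes, Cldn5, Thbd and Egfl7, all lower in SHR, against 2.54% of all probe sets that were lower at that level and 5.55% in either direction. The fitted difference was below 0 for 22 of the 29 genes, against 52% of all probe sets. The median difference was -0.28 over the endothelial genes and -0.01 over all tested probe sets. The differences ran from -0.99 (Cldn5) to 0.55 (Flt1). Half-widths of the 95% intervals ran from 0.39 to 1.58, with a median of 0.77. For 17 of the 29 genes the interval reached a difference of -1 or lower and for 4 it reached 1 or higher, with 2 genes, Vwf and Emcn, in both counts.

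**Figure D3:**
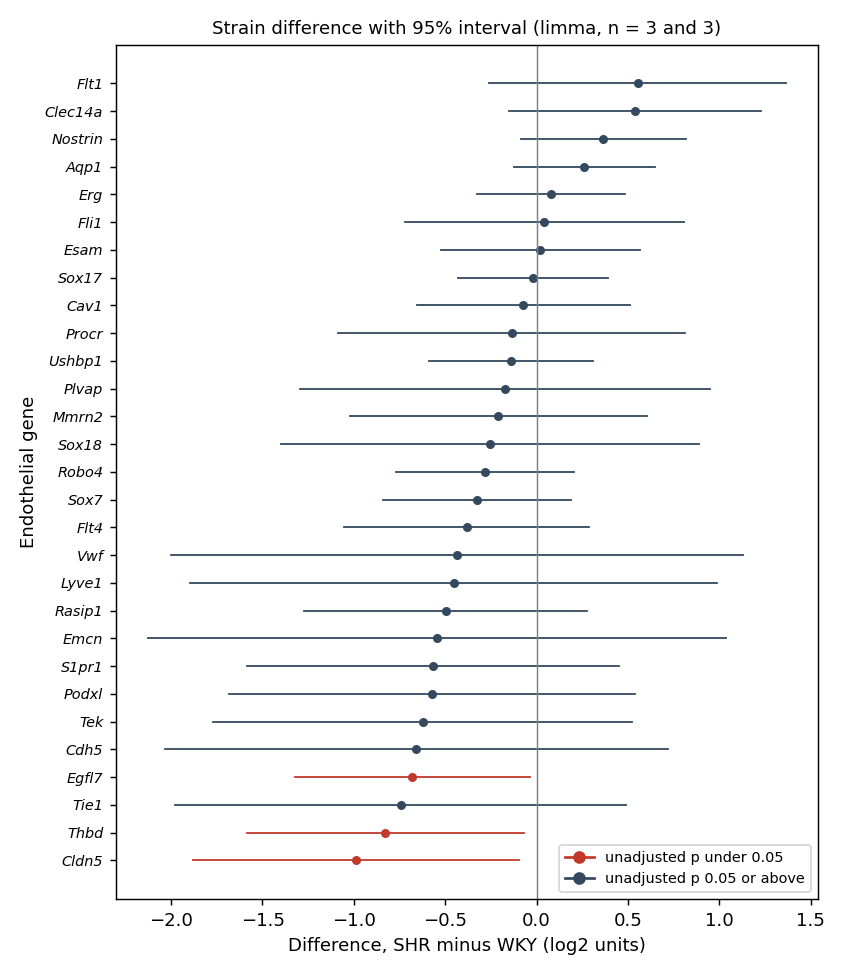
Difference in log2 level, SHR minus WKY, for the 29 endothelial genes, as points with 95% intervals from limma (3 arrays per strain). The intervals of Cldn5, Thbd and Egfl7 (red, unadjusted p under 0.05) lie below 0, and those of the other 26 genes cross 0.

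Junction and adhesion genes hold neighbouring endothelial cells together. Claudin 5, encoded by Cldn5 (probe set 17671142), seals tight junctions. Given in the order of the replicates, as are the triplets that follow, its log2 level was 4.86, 3.93 and 3.33 in SHR and 5.35, 4.67 and 5.07 in WKY. SHR replicates 2 and 3 lay under every WKY array, and SHR replicate 1 lay among them. The level differed by -0.99 ± 0.38 (SE, n = 3 per strain; limma adjusted p = 0.877). Cdh5 encodes VE-cadherin, the adhesion protein of endothelial adherens junctions, and lay at 7.46, 5.53 and 5.18 in SHR and at 7.34, 6.61 and 6.20 in WKY. The first array of each strain was high and about equal, and the SHR levels ran both above and below all those of WKY. Its difference was -0.66 with a 95% interval from -2.04 to 0.72. Esam, an immunoglobulin-type adhesion molecule shared with platelets, had a narrower range, from 5.43 to 6.23 in SHR and from 5.54 to 5.96 in WKY, and differed by 0.02 ± 0.23 (SE).

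Among the genes of haemostasis, thrombomodulin is the receptor that turns thrombin towards anticoagulation. Its gene Thbd (probe set 17777978) lay at 6.36, 5.92 and 5.08 in SHR and at 6.90, 6.54 and 6.40 in WKY. Every SHR array was under every WKY array, as for 5.61% of all tested probe sets, and no other of the 29 genes was separated in this direction. The difference was -0.83 ± 0.32 (SE; limma adjusted p = 0.882). Procr, the endothelial receptor of protein C, which thrombomodulin helps to activate, lay at 6.00, 4.65 and 4.36 in SHR and at 5.33, 4.86 and 5.23 in WKY. Von Willebrand factor tethers platelets to damaged vessels and is stored in endothelial granules. Its gene Vwf had the widest range of the 29 genes, with 6.51, 5.59 and 3.59 in SHR against 5.84, 5.20 and 5.95 in WKY. SHR replicate 1 was the highest and SHR replicate 3 the lowest array, so the strains overlapped throughout, and the difference was -0.43 with a 95% interval from -2.0 to 1.13. Pf4, a platelet chemokine that macrophages can also express, had the same order within SHR, at 5.48, 4.22 and 3.63 in SHR and 5.37, 4.62 and 4.84 in WKY. The other 3 measured platelet genes did not exceed 2.94 on any array.

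The receptor tyrosine kinases divide into those for angiopoietins and those for vascular endothelial growth factors (VEGF). Tek, the angiopoietin receptor that keeps vessels quiescent, lay at 6.22, 4.79 and 4.30 in SHR and at 6.28, 5.56 and 5.33 in WKY. Its partner Tie1 lay at 5.56, 4.02 and 3.34 in SHR and at 5.48, 4.96 and 4.70 in WKY. For both genes the first arrays of the strains were nearly equal and SHR replicates 2 and 3 lay under every WKY array. Their differences were -0.62 ± 0.49 and -0.74 ± 0.53 (SE; limma adjusted p = 0.923 each). Flt1, the VEGF receptor that also acts as a decoy, was the gene with the highest difference, at 5.67, 4.71 and 5.18 in SHR and 5.23, 4.63 and 4.05 in WKY. The arrays overlapped, WKY replicate 3 was the lowest, and the difference was 0.55 ± 0.35 (SE; limma adjusted p = 0.923). Flt4, the receptor of lymphatic VEGF, was dim, at 2.39 to 3.37 in SHR and 2.82 to 3.42 in WKY.

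Other surface receptors did not share one pattern. Clec14a, a C-type lectin of endothelial cells, lay at 5.54, 5.43 and 5.45 in SHR and at 5.27, 5.31 and 4.22 in WKY. All SHR arrays were above all WKY arrays, as for 6.48% of all tested probe sets, yet most of the difference came from WKY replicate 3. It was 0.54 ± 0.30 (SE; limma adjusted p = 0.923) and 0.18 without WKY replicate 3. Its matrix ligand Mmrn2 lay at 5.47, 4.46 and 4.09 in SHR and at 5.08, 4.58 and 5.0 in WKY, so that the ligand had its lowest level on SHR replicate 3 and the receptor on WKY replicate 3. S1pr1, the receptor for the lipid sphingosine 1-phosphate, which steadies the endothelial barrier, lay at 5.93, 4.74 and 4.56 in SHR and 6.21, 5.77 and 4.95 in WKY. Robo4, a guidance receptor that limits leakage, was dim, at 2.14 to 2.58 and 2.34 to 2.97. On the assembly GRCr8 Robo4 and Esam lie near each other on chromosome 8, with 2 protein-coding genes between them. Ushbp1 and Plvap lie near each other on chromosome 16, with 7 between them.

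Egfl7 encodes a secreted protein that endothelial cells lay down around themselves. Its probe set, 17760175, read 4.47, 3.53 and 3.58 in SHR and 4.78, 4.35 and 4.48 in WKY. SHR replicates 2 and 3 lay under every WKY array and SHR replicate 1 within their range. The difference was -0.68 ± 0.27 (SE; limma adjusted p = 0.882).

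The surface sialomucins and the diaphragm protein moved widely. Emcn encodes endomucin, which covers capillary and venous endothelium, and lay at 7.03, 4.94 and 4.65 in SHR and at 6.70, 6.48 and 5.08 in WKY. Besides SHR replicates 2 and 3, WKY replicate 3 was also low. The difference was -0.55 ± 0.68 (SE; limma adjusted p = 0.934). Podxl, the related podocalyxin, lay at 6.57, 5.51 and 4.68 in SHR and 6.68, 6.14 and 5.65 in WKY. Plvap, which builds the diaphragms of fenestrated and caveolar openings in capillaries and veins, lay at 6.32, 4.44 and 4.70 in SHR and 5.45, 5.64 and 4.89 in WKY. On Plvap the first SHR array was alone at the top, and the other 2 SHR arrays were under all WKY arrays. Lyve1, the hyaluronan receptor of lymphatic endothelium that some macrophages of the vessel wall also carry, lay at 6.46, 4.59 and 3.73 in SHR and at 5.69, 5.26 and 5.19 in WKY.

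The transcription factors did not move as one. Erg, an ETS factor, was nearly flat at 6.90, 6.97 and 7.03 in SHR and 7.05, 7.04 and 6.59 in WKY. Its range within SHR was 0.13, on the same arrays over which Cdh5 spanned 2.28. Fli1, the other ETS factor, which blood cells also express, lay at 6.37 on SHR replicate 1 and between 5.14 and 5.63 on the other 5 arrays. Among the SOXF factors Sox18 spanned 1.98 within SHR, at 4.71, 3.79 and 2.73, and lay at 4.55, 3.87 and 3.58 in WKY. Sox17 ranged from 3.42 to 3.86 and Sox7 from 3.65 to 4.38 over all 6 arrays. Sox17 and Sox18 were highest on SHR replicate 1 and Sox7 on WKY replicate 3, while Sox18 alone of these 3 was lowest on SHR replicate 3.

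Of the remaining genes, Cav1, the coat protein of caveolae, and Aqp1, a water channel, are also made by smooth muscle. Cav1 lay at 9.51 to 9.82 in SHR and 9.15 to 10.01 in WKY, and Aqp1 at 8.70 to 9.09 and 8.46 to 8.75. SHR replicate 3, the lowest array for most endothelial genes, was the highest for Aqp1. Of the intracellular adaptors, Rasip1, which controls small GTPases during lumen formation, lay at 4.36, 3.13 and 3.22 in SHR and 4.29, 3.87 and 4.04 in WKY. Nostrin, which binds endothelial nitric oxide synthase, was dim, at 2.75 to 3.35 in SHR and 2.53 to 2.70 in WKY. All its SHR arrays were above all WKY arrays, as for 6.48% of all tested probe sets. Clec14a and Nostrin were the 2 of the 29 genes separated in this direction. The difference of Nostrin was 0.37 ± 0.19 (SE; limma adjusted p = 0.923). Ushbp1 stayed between 2.27 and 2.82. In all, 9 of the 29 genes had a range under 1 log2 unit over the 6 arrays (Sox17, Erg, Ushbp1, Aqp1, Sox7, Esam, Nostrin, Robo4 and Cav1), 14 a range from 1 to under 2, and 6 a range of 2 or more (Vwf, Lyve1, Emcn, Cdh5, Tie1 and Cldn5).

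Promoter sequence, the stretch of DNA before the start of a gene, is given here for the 3 genes of widest and the 2 of narrowest range over the arrays among the 18 measured genes that the RefSeq promoter table holds. Each is the 250 bases before the start on assembly GRCr8, written 5′ to 3′ on the strand of the gene, with capitals marking motif matches on either strand.
Lyve1 (chr1:174410978-174411227, minus strand): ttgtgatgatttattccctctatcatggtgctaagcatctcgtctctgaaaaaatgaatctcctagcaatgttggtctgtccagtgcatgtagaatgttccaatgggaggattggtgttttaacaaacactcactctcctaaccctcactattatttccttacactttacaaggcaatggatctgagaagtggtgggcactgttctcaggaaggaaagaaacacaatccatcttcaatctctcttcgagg
Emcn (chr2:228564289-228564538, plus strand): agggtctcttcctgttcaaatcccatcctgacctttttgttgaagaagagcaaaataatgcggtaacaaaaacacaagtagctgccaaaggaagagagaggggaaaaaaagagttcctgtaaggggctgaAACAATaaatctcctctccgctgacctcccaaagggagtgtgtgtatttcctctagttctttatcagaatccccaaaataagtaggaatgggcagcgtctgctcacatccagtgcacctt
Tie1 (chr5:137304982-137305231, minus strand): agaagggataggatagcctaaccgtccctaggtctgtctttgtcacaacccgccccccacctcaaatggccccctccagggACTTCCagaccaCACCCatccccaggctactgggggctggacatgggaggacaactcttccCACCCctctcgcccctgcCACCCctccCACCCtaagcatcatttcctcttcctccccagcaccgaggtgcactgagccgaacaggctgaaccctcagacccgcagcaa
Erg (chr11:48251567-48251816, minus strand): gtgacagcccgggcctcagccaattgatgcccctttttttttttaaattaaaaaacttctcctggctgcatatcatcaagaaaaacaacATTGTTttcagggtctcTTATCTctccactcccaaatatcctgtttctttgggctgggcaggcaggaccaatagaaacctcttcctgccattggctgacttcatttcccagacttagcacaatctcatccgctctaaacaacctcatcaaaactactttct
Ushbp1 (chr16:18101868-18102117, minus strand): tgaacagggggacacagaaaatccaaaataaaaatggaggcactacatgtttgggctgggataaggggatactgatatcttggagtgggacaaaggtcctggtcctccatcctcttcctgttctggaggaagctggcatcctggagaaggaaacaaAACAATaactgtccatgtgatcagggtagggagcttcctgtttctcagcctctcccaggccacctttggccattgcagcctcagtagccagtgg
The letters searched were GGAAGT for ETS factors, AACAAT for SOX factors, AGATAA for GATA factors and CACCC for KLF factors, with their reverse complements. None of these motifs overlaps another in the 5 windows. Of the 34 genes 21 have a promoter in that table, and 7 of the 21 hold the ETS motif (Egfl7, Eng, Flt1, Kdr, Mmrn2, Plvap and Tie1), against 19.2% of all 33469 promoters. The SOX motif was found in 4 (Emcn, Erg, Podxl and Ushbp1), against 10.3% of all, the GATA motif in Erg alone, against 10.3%, and the KLF motif in 12, against 49.2%. For 3 of the 21 genes the table holds more than 1 promoter, and a match in any of them was counted. A match describes letters in this window and is not a site shown to be bound.

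Other genes of the endothelium were read from lists of textbook markers. Of 35 other endothelial genes, all measured, 0 passed in limma over all probe sets, where 0.0693% of all did. At an unadjusted p under 0.05, 1 was lower, against 2.54% of all probe sets, and the median difference was -0.20. They shared the pattern by array, with mean log2 levels of 4.97, 4.16 and 3.94 in SHR and 4.79, 4.58 and 4.34 in WKY. Of the 35, 15 were highest on SHR replicate 1, against 16.8% of all, and 20 lowest on SHR replicate 3, against 15% of all. Notch4, an endothelial Notch receptor, lay at 3.35, 3.04 and 3.07 in SHR and at 3.42, 3.61 and 4.08 in WKY (a difference of -0.55 ± 0.21, SE; limma adjusted p = 0.861). The flow-responsive factor Klf2 differed by -0.45 and the scaffold gene Shank3 by -0.58, neither passing. The 8 genes of arterial endothelium had mean levels within 4.40 to 4.65 in SHR and 4.53 to 4.89 in WKY, with a median range within SHR of 0.40. Of the 8, 1 was highest on SHR replicate 1, against 16.8% of all, and 4 were lowest on SHR replicate 3, against 15% of all. Among these arterial genes Sema3g, a semaphorin of arteries, differed by -0.64 (limma adjusted p = 0.860). The other 2 lists were thinner: 5 of 8 capillary genes and 2 of 4 venous genes were measured, with median differences of -0.46 and 0.28. The capillary factor Tcf15 differed by -0.73 and the venous factor Nr2f2 by 0.37, neither passing.

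Lymphatic endothelium was read from 5 of 6 genes, with mean levels of 5.20, 3.11 and 3.11 in SHR and 4.38, 4.52 and 3.97 in WKY. Mmrn1, a secreted protein of lymphatic endothelium and platelets, lay at 7.43, 3.96 and 4.30 in SHR and at 7.69, 7.64 and 5.05 in WKY. As with Emcn, SHR replicate 1 stood with WKY replicates 1 and 2, and WKY replicate 3 was low. Its difference was -1.56 ± 1.04 (SE; limma adjusted p = 0.923). Prox1, the factor that sets lymphatic fate, stayed between 1.18 and 2.21, under every array median.

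The 12 ligands of the endothelial receptors had mean levels of 4.99, 4.70 and 4.60 in SHR and 4.84, 4.74 and 4.50 in WKY, a narrower range over arrays than that of the 29 endothelial genes. Single ligands differed in the array on which they were highest. Vegfd, Angpt1 and Angpt4, picked after their values were seen, were the only 3 of the 12 highest on SHR replicate 1. In SHR the lymphatic growth factor Vegfd lay at 4.22, 3.12 and 2.43, and the angiopoietins Angpt1 and Angpt4 lay at 4.44, 3.62 and 2.98 and at 4.19, 3.48 and 2.62. Of the ligands highest elsewhere, Slit2 was highest on SHR replicate 2 and Slit3 and Vegfc on SHR replicate 3. None of the 12 ligands passed, 0 reached an unadjusted p under 0.05, and the median difference was 0.07. Slit2 and Slit3, the guidance ligands, differed by 0.48 ± 0.23 and 0.23 ± 0.17 and Vegfc, the ligand of Flt4, by 0.28 ± 0.15 (SE).

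Markers of some other cell types, but not of all, moved with the endothelial genes across arrays. White adipocyte markers, all 10 measured, had mean log2 levels of 7.78, 6.07 and 4.41 in SHR and 7.67, 6.27 and 6.43 in WKY. The adipocyte genes Plin1 and Cidec, which coat the fat droplet, lay at 8.04, 6.36 and 4.15 and at 7.77, 5.33 and 3.65 on the SHR arrays, while Plin4 of the same list stayed between 6.22 and 6.56 on all 6 arrays. Macrophage markers, 10 of 10 measured, lay at 6.08, 4.66 and 3.79 in SHR and 5.44, 4.51 and 4.62 in WKY, with all 10 highest on SHR replicate 1. Fibroblast markers, 7 of 7 measured, lay at 8.55, 7.85 and 7.11 in SHR and 8.37, 8.26 and 7.88 in WKY. Smooth muscle markers ran the other way, at 9.26, 9.47 and 9.60 in SHR and 9.42, 9.53 and 9.57 in WKY, and 0 of the 7 were above their own mean on SHR replicate 1. The haemoglobin gene Hba-a1, the 1 measured of 4 erythrocyte markers, lay at 4.07, 1.85 and 1.36 in SHR and 3.32, 5.09 and 4.20 in WKY. The sympathetic genes Th and Dbh lay at 5.92 and 6.40 on SHR replicate 1 and did not exceed 1.68 and 2.80 on the other 5 arrays.

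**Figure D4:**
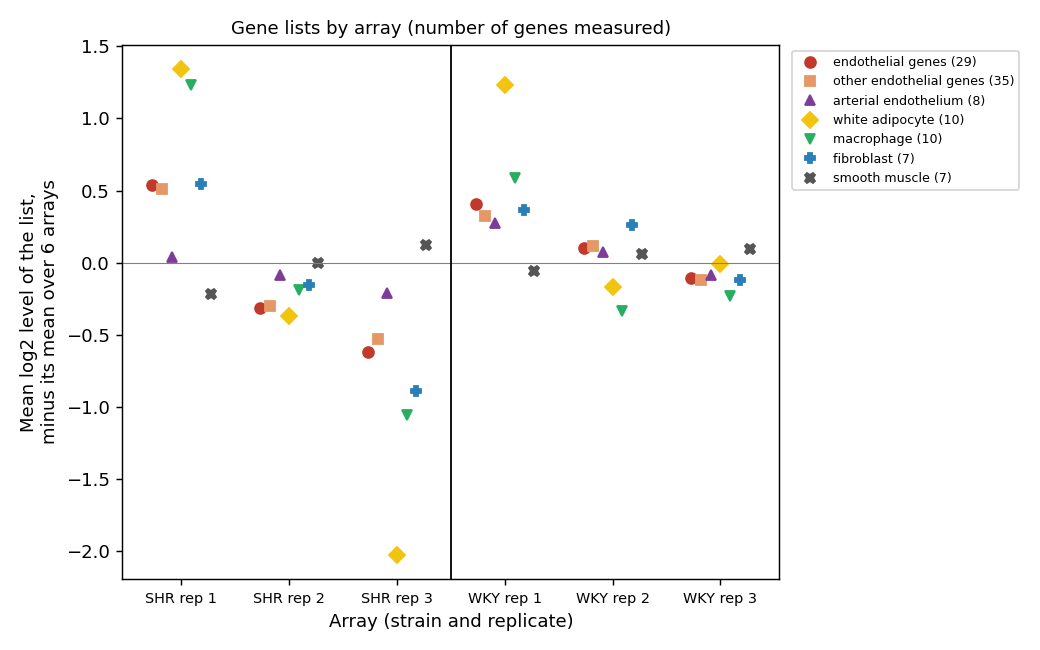
Mean log2 level of each gene list on each array, minus its mean over the 6 arrays, with 1 marker shape per list (side by side within an array) and the number of genes measured in the key. Endothelial genes lie above 0 on SHR replicate 1 and WKY replicate 1 with white adipocyte, macrophage and fibroblast markers, and below 0 on SHR replicate 3, where smooth muscle markers lie above 0.

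In a fit of strain and white adipocyte mean together, the endothelial genes differed by a median of 0.33 log2 units per log2 unit of the adipocyte mean, from -0.09 (Aqp1) to 0.76 (Vwf). The median was -0.01 over all tested probe sets, -0.09 over the smooth muscle markers and 0.67 over the macrophage markers. Fabp4, of the adipocyte list, is also made by capillary endothelium. With that mean as a covariate 0 of the 29 genes passed, and the median strain difference was 0.01 in place of -0.28. The 3 genes at an unadjusted p under 0.05 were again Cldn5, Thbd and Egfl7, all lower (2.73% of all probe sets were), with differences of -0.68, -0.57 and -0.49. All 10 adipocyte markers themselves had a strain difference below 0, with a median of -0.75. The covariate thus overlaps with strain, and this fit cannot separate strain from the adipocyte mean. Neither macrophage nor fibroblast markers were used as a covariate. The part of any of these cell types in the differences was not tested.

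The counts depended on which arrays entered the fit. Without SHR replicate 1, 15 of the 29 genes had an unadjusted p under 0.05, all lower in SHR, where 3.37% of all probe sets were lower at that level, and 0 passed in limma after adjustment, against 0.0231% of all. The median difference was then -0.67, with Cdh5 at -1.36, Tie1 at -1.37 and Emcn at -1.29. The number at an unadjusted p under 0.05 was 0 without SHR replicate 2 (3.56% of all) and 0 without SHR replicate 3 (4.12% of all), with a median difference of -0.27 and -0.0084. It was 1 without WKY replicate 1 (Flt1, higher in SHR, against 5.06% of all), 2 without WKY replicate 2 (Cldn5 and Sox7, against 5.72%) and 1 without WKY replicate 3 (Thbd, against 6.8%). The 29 genes had their highest mean level in SHR on replicate 1 (5.61) and their lowest in WKY on replicate 3 (4.96). Leaving out either of these arrays, or both, therefore lowers the mean difference of these genes by the choice of arrays. With SHR replicate 1 and WKY replicate 3 both left out, 17 of 29 genes had an unadjusted p under 0.05. All 17 were lower, where 6.42% of all were, and the median difference was -0.85. In that fit Emcn, at -1.79, passed with a limma adjusted p of 0.0499, as did 0.531% of all probe sets.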

How the data were processed

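RNA of 6 thoracic aorta samples, 3 per strain, was measured on Affymetrix Rat Gene 2.0 ST arrays, and groups and replicate numbers came from the sample titles. The authors deposited log2 levels, 1 for each probe set. The submitters' processing notes name RMA (background correction, quantile normalization and summarization of probes) and Affymetrix Expression Console 1.2.1, and the log base follows from RMA's definition. Which summarization level and genome build were used is not given in the sources used here. Of 28879 probe sets, 18511 have 1 gene symbol, 575 several and 9793 are not listed. Entrez identifiers matched 18394 to RefSeq (GRCr8) for current symbols.

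Probe sets with a mean at or above the 25th percentile (1.17) were tested, 21659 in all. All 29 measured members passed this filter. Two-sided tests of strain used lmFit and eBayes of limma 3.58.1 under R 4.3.3, with Benjamini-Hochberg adjustment over all tested probe sets. A gene with several probe sets was read from the brightest. The fit was tested on simulated data in which probe sets varied independently, so that test does not cover genes that move together by array. Members and lists were chosen with earlier results of these data known. All measured members may be named, and from each further list the 3 genes with the smallest unadjusted p, with the 2 brightest of each other cell type. The ligands Vegfd, Angpt1 and Angpt4 were named outside this rule. Lists are described by counts and medians, without set tests. Alternatives were a replicate block, other filters, normalizations, priors and array weights, covariates, and leaving out arrays.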

Additional observations from a re-analysis of the deposited data

How the results depend on the processing

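With 3 arrays per strain only large differences could pass, and dim genes have no detection call. In 16 of 17 alternatives, as in the reported fit, 0 of the 29 endothelial genes passed in limma (3 at an unadjusted p under 0.05 in the reported fit). The exception is the fit with SHR replicate 1 and WKY replicate 3 both left out, where 1 passed, 17 had an unadjusted p under 0.05 and the median difference was -0.85. Those were the highest SHR array and the lowest WKY array by mean level of these genes, so that choice itself lowers the difference. Leaving out 1 array gave 0 passing, 0 to 15 genes at an unadjusted p under 0.05 and medians from -0.67 to -0.0084. The 15 genes and the median of -0.67 came without SHR replicate 1, a choice that likewise lowers the difference by itself. The number at an unadjusted p under 0.05 was 1 with arrays centred on their medians (4.68% of all probe sets). It was 13 with array weights (0.22 for WKY replicate 3, 2.05 for SHR replicate 2), 12 lower and Nostrin higher in SHR, against 10.4% of all. With the smooth muscle mean as a covariate, an alternative chosen after seeing the data, it was 13, all lower, against 3.92% of all that were lower. With the other filters, a further quantile normalization, trend and robust estimation, the white adipocyte covariate and means of probe sets it stayed at 3, each time Cldn5, Thbd and Egfl7.

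Whether same-numbered arrays share more than a number was not tested. Their deviations from the strain means correlated at 0.35, -0.08 and 0.23 for replicates 1, 2 and 3. Across the strains, the arrays of replicate 1 correlated best with each other, as did those of replicate 3. SHR replicate 2 and WKY replicate 2 did not correlate best with each other. The 3 deviations of a strain sum to 0, so some pairs must correlate above others, and no pairing follows from these values. With the replicate number as a block, 0 genes passed and 8 had an unadjusted p under 0.05, all lower in SHR (3.21% of all probe sets were), including the 3 of the reported fit.

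Leaving out 1 array changed the sign of the difference for 11 genes, between -0.35 and 0.0807 for Cav1, -0.0729 and 0.16 for Erg, -0.20 and 0.20 for Esam, -0.36 and 0.25 for Fli1, -1.22 and 0.14 for Lyve1, -0.61 and 0.0818 for Mmrn2, -0.76 and 0.18 for Plvap, -0.63 and 0.19 for Procr, -0.16 and 0.0648 for Sox17, -0.74 and 0.25 for Sox18, and -1.07 and 0.39 for Vwf. A further quantile normalization turned Erg (-0.0024), Esam (-0.0495) and Fli1 (-0.0116), and median centring turned Sox17 (0.0279). Array weights turned Erg (-0.0372), Esam (-0.21) and Fli1 (-0.18), and the smooth muscle covariate turned Esam (-0.0956) and Fli1 (-0.17). With SHR replicate 1 and WKY replicate 3 both left out, Erg was -0.0381, Esam -0.31 and Fli1 -0.41. With the white adipocyte covariate, Lyve1 was 0.0602, Mmrn2 0.0579, Plvap 0.12, Procr 0.18, Sox18 0.16, Cav1 0.0085, Vwf 0.0986 and Sox17 0.0337. The cause of these changes was not tested.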
